A study of Bos taurus with 17 samples.

Results

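Anti-Mullerian hormone, the inhibin and activin subunits, the follistatins and 2 of their receptors were followed in bovine cumulus cells, the somatic cells that surround the oocyte, at 3 stages of oocyte developmental competence. The 8 genes were AMH, its receptor AMHR2, the inhibin and activin subunit genes INHA, INHBA and INHBB, the activin-binding proteins FST and FSTL3, and TGFBR3, which encodes betaglycan. They were found by name among the 21475 non-control probes of a 1-colour Agilent bovine array. The strict rule took a probe by its gene symbol, or by its description where the array design gives only a LOC number. That rule held 7 probes of 6 genes. INHBB, TGFBR3 and the second INHBA probe carry another identifier on the array but name the gene in their description, and with them the 8 genes had 11 probes.

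Cumulus cells were sampled as NC1, C1 and C2. At NC1 stage (n = 6) cells came from compact complexes of prepubertal calves aged 3 to 6 months, aspirated from follicles of 3 to 6 mm, whose prophase I oocytes resume meiosis but are developmentally incompetent. At C1 stage (n = 6) they came from compact complexes of adult cows of different ages, with prophase I oocytes that become competent. At C2 stage (n = 5) they came from expanded complexes around metaphase II oocytes of non-lactating Holstein cows aged 3 to 5 years, matured in vivo in follicles over 8 mm. These cows alone were synchronised with progestagen, superovulated with an FSH and LH preparation and punctured 60 h after prostaglandin, whereas calf and C1 ovaries were aspirated after slaughter. The labels give no follicle size for C1, and the study states that C1 complexes were obtained by the procedure used for calves. Stage, hormone treatment, follicle size and mode of recovery thus cannot be told apart. The labels name the tissue ovarian follicles, while their treatment notes and the study's methods describe cumulus cells. Each array held 1 animal, and age and adulthood separate NC1 from both other stages.

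All ligands in this group belong to the TGF-beta family. The inhibin alpha subunit pairs with a beta subunit to make inhibin, which lowers pituitary FSH secretion, whereas 2 beta subunits pair to make activin, which raises it. Follistatin and follistatin-like 3 bind activin and keep it from its receptors, and betaglycan is a co-receptor that raises the affinity of inhibin for the activin type II receptors. AMH is made by granulosa and cumulus cells of growing follicles, where it restrains follicle recruitment and the response to FSH, and it signals through AMHR2. Arrays measure transcripts, so that none of the values below is a level of a dimer or of a bound ligand.

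Values are log2 of the processed signal over the median of all probes on that array, so that 0 is the array's median probe, and levels are comparable between arrays for 1 probe but not between probes. A change was called when the limma adjusted p was below 0.01. The array median signal ran from 64.2 to 208 over the 17 arrays and 66.2% to 82.8% of probes were above background. Precision is limited by the number of arrays. The markers of the sampled tissue were present: 6 of 7 granulosa and cumulus markers on the array were above background on all arrays at NC1 and at C1 stage, and all 7 at C2 stage. The C2 arrays did not form 1 even group. Across the 13865 valid probes, C2 replicates 1 and 5 differed from each other with an SD of 0.444 and replicates 3 and 4 with an SD of 0.512, whereas the other 8 pairs of C2 arrays differed with an SD of 1.05 to 1.27. The pairs within C1 stage differed by 0.453 to 0.756 and those within NC1 stage by 0.431 to 0.694. Replicates 3 and 4 were scanned on scan day 2 and replicates 1, 2 and 5 on scan day 1, and both days held arrays of all 3 stages. No label ties replicates 1 and 5, or 3 and 4, to 1 animal, and averaging each of them into 1 value changed no call of a member probe.

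At C2 stage AMH, AMHR2, INHBB and FST were down-regulated in comparison to both compact stages, while INHA, INHBA, FSTL3 and TGFBR3 did not pass the test. Some alternative settings given below lost calls of INHBB, AMHR2 and FST, whereas those of AMH were kept in all. Of the 10 valid probes, 4 were called among the 3 stages, where 28.6% of all valid probes were called. All 4 were lower at C2 stage: AMH, INHBB and both FST probes. Between C2 and C1, 4 of 10 were called lower and none higher, against 12.8% of all valid probes called lower and 15.3% called higher. Between C2 and NC1 the same 4 were called lower and none higher, against 12.6% and 15.5%. The median change of the 10 probes from C1 to C2 was -1.49, beside 0.02 over all valid probes, and from NC1 to C2 it was -1.35 beside 0.11. Between C1 and NC1 limma called none of the 10, where 0.0577% of valid probes were called. An unadjusted limma p below 0.05 was found for 2 of the 10, beside 1365 of all 13865 valid probes. The arrays of C2 lay wholly below those of C1 for 4 of the 10 probes, where 11.0% of valid probes did so, and wholly below those of NC1 for 3 of the 10, where 10.3% did. In RNA from many cells, fewer expressing cells and less RNA per cell cannot be told apart.

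**Figure D1:**
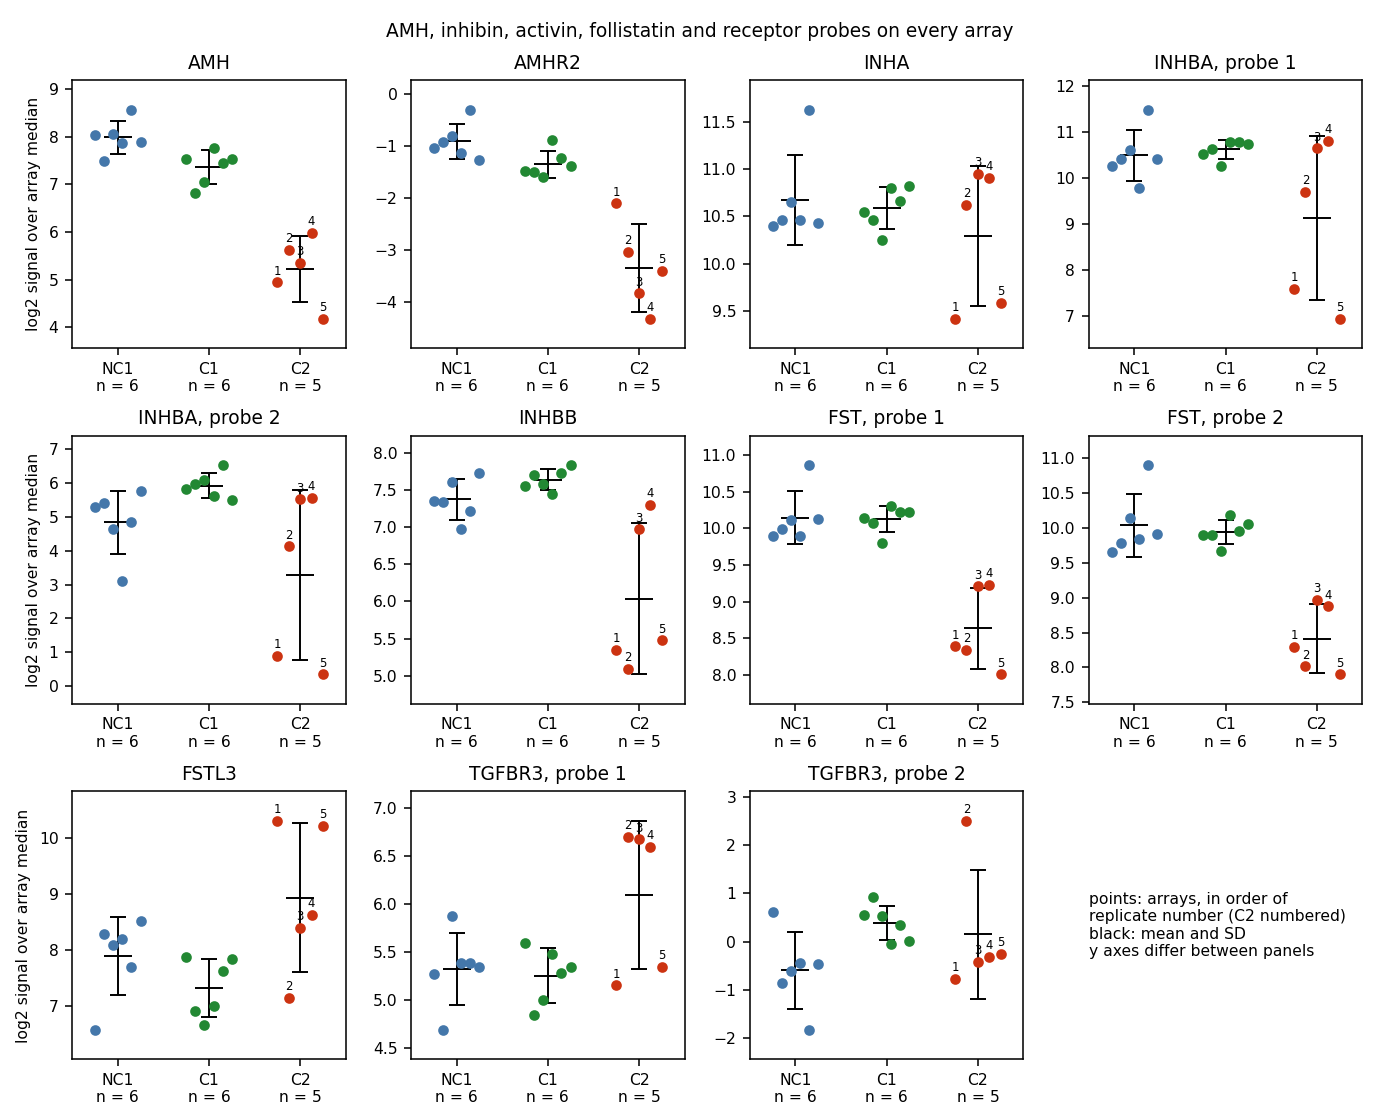
Log2 signal over the array median for each of the 11 probes, by stage. Points are arrays, black marks are the mean and SD, and C2 arrays carry their replicate number. C2 arrays lie below all others for AMH, AMHR2 and both FST probes, and they are split for INHBA, INHBB and FSTL3.

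Of the valid member probes called, that of AMH had the largest fall, and its first 30 bases are shown as deposited, 5′ to 3′, to identify the stretch measured.
AMH: ggccaccgaatgcggctgccggtgacctcg
At NC1 stage AMH signal was lowest at 7.49, had a median of 7.96 and was highest at 8.57. At C1 stage AMH ran from 6.82 to 7.77 with a median of 7.49. In C2 replicates 1 to 5 AMH was 4.94, 5.63, 5.35, 5.98 and 4.18. Every C2 array was thus below every array of the compact stages, and the NC1 and C1 ranges overlapped. AMH fell by 2.14 (SE 0.28) from C1 to C2, which is 4.41-fold, with a limma adjusted p of 7.11e-06. It fell by 2.77 (SE 0.28) from NC1 to C2, which is 6.80-fold, with a limma adjusted p of 3.86e-07. The AMH difference between C1 and NC1 was -0.63 (SE 0.26), which did not pass the test (limma adjusted p = 0.421), although 3 of 6 C1 arrays were below all NC1 arrays. Within scan day 1 the AMH change from C1 to C2 was -2.58 and within scan day 2 it was -1.55. In every alternative setting AMH stayed called in both comparisons with C2, with values between -2.58 and -1.55 against C1 and between -3.11 and -2.27 against NC1.

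AMHR2, the type II receptor to which AMH binds, is read by a dim probe. It was above background on 6 of 6 NC1 arrays and 6 of 6 C1 arrays but on 3 of 5 C2 arrays, so it was not among the valid probes and was tested among the 15256 probes present in any 2 stages. AMHR2 ran from -1.27 to -0.30 at NC1 stage with a median of -0.98. It ran from -1.60 to -0.89 at C1 stage with a median of -1.43. AMHR2 was -2.10, -3.03, -3.83, -4.32 and -3.41 in the C2 arrays, of which replicates 3 and 4 were not above background, and all 5 were below every compact array. By the fit, AMHR2 fell by 1.99 (SE 0.30) from C1 to C2 with a limma adjusted p of 3.92e-05, and fell by 2.43 (SE 0.30) from NC1 to C2 with a limma adjusted p of 4.54e-06. In that larger set 13.2% of probes were called lower in C2 than in C1 and 13.1% lower than in NC1, and 11.4% and 10.9% had all C2 arrays below all C1 or all NC1 arrays. With readings at background among the C2 arrays, these differences are not a measured size, and their size depended on the background correction. With normexp the AMHR2 difference was -0.53 between C2 and C1, which was no longer called (limma adjusted p = 0.0214), and AMHR2 fell by 0.84 from NC1 to C2, which was still called (limma adjusted p = 0.000734). Within scan day 1 the AMHR2 difference between C2 and C1 was -1.48 and was not called (limma adjusted p = 0.0166). The C1 to NC1 difference of AMHR2 was -0.44 (SE 0.29, limma adjusted p = 0.634).

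INHA, the alpha subunit that makes a dimer an inhibin, passed the test in no comparison. INHA ran from 10.40 to 11.63 at NC1 stage with a median of 10.46, and from 10.25 to 10.82 at C1 stage with a median of 10.61. In the C2 arrays INHA was 9.41, 10.63, 10.95, 10.91 and 9.58. Replicates 1 and 5 were below all compact arrays, whereas replicates 3 and 4 were above all C1 arrays. The INHA change was -0.29 (SE 0.29) from C1 to C2 and -0.38 (SE 0.29) from NC1 to C2, and neither passed the test (limma adjusted p = 0.449 and 0.326). Within scan day 1 INHA changed by -0.80 from C1 to C2 and within scan day 2 by 0.43, neither past the threshold (limma adjusted p = 0.204 and 0.239).

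INHBA encodes the beta A subunit, shared by activin A and inhibin A, and 2 probes read it. They are shown by their first 30 bases, 5′ to 3′ as deposited by the authors, because they share no run longer than 6 bases and so read different stretches of what the array names 1 gene.
INHBA probe 1: agacggtccagagaagacagtggtgacacg
INHBA probe 2: cccacccagtaacccaggtcgtaaggtatg
Over the 17 arrays the signals of both probes had a Pearson correlation of 0.911, and after removal of the stage means of 0.898. The points share labelling and array, and the value is a description.

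INHBA probe 1 ran from 9.78 to 11.49 at NC1 stage with a median of 10.40, and from 10.26 to 10.79 at C1 stage with a median of 10.69. The C2 arrays gave 7.59, 9.69, 10.65, 10.81 and 6.94 for INHBA probe 1. Replicates 1 and 5 were thus far below the compact stages, replicate 2 slightly below, and replicates 3 and 4 within their range. INHBA probe 1 differed by -1.49 (SE 0.55) between C2 and C1 and by -1.36 (SE 0.55) between C2 and NC1, and neither passed the test (limma adjusted p = 0.0378 and 0.0574). INHBA probe 2 had C2 values of 0.88, 4.13, 5.52, 5.57 and 0.34, beside 5.50 to 6.53 at C1 stage and 3.12 to 5.75 at NC1 stage. It differed by -2.63 (SE 0.79) between C2 and C1 and by -1.55 (SE 0.79) between C2 and NC1 (limma adjusted p = 0.0126 and 0.128). Within scan day 1 the change of INHBA probe 1 from C1 to C2 was -2.61, and within scan day 2 it was 0.17. For INHBA probe 2 these changes were -4.17, which was called (limma adjusted p = 0.00551), and -0.34. Single C2 arrays changed the calls against C1: without replicate 4 INHBA probe 1 differed by -1.91 and was called (limma adjusted p = 0.00857), and INHBA probe 2 was called without replicate 3 (limma adjusted p = 0.0036) and without replicate 4 (limma adjusted p = 0.0033). The interaction of stage and scan day was -2.78 for INHBA probe 1 and -3.83 for INHBA probe 2, neither past the threshold (limma adjusted p = 0.0519 and 0.0627).

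INHBB encodes the beta B subunit, shared by activin B and inhibin B. INHBB ran from 6.98 to 7.73 at NC1 stage with a median of 7.34, and from 7.44 to 7.83 at C1 stage with a median of 7.64. INHBB was 5.34, 5.09, 6.97, 7.29 and 5.48 in the C2 arrays. All 5 were below every C1 array and 4 of 5 were below every NC1 array, replicate 4 being within the NC1 range. INHBB fell by 1.60 (SE 0.33) from C1 to C2, which is 3.04-fold (limma adjusted p = 0.000707), and fell by 1.34 (SE 0.33) from NC1 to C2, which is 2.53-fold (limma adjusted p = 0.00314). The fall was uneven between scan days. The change of INHBB from C1 to C2 was -2.40 within scan day 1 and -0.44 within scan day 2, where it was not called (limma adjusted p = 0.26). From NC1 to C2 the INHBB changes were -2.0 and -0.31. The interaction for INHBB was -1.96 (SE 0.34) in the comparison with C1 and passed the threshold (limma adjusted p = 0.00766), and it was -1.69 in that with NC1, which did not (limma adjusted p = 0.0179). Since replicates 3 and 4 are all the C2 arrays of scan day 2, the day and these 2 arrays cannot be told apart. With replicates 1 and 5, and 3 and 4, averaged, the INHBB change from C1 to C2 was -1.76 and stayed called (limma adjusted p = 0.000531). The call against NC1 was lost without C2 replicate 1 (limma adjusted p = 0.0102) and without C2 replicate 5 (limma adjusted p = 0.0101).

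FST encodes follistatin, and both of its probes carry the gene's symbol. They are shown by their first 30 bases since their values agreed most closely although they share no run longer than 4 bases.
FST probe 1: tgaagaccaggactacagctttcctatatc
FST probe 2: ttaaaggctagtctgctgtaccttttcaac
The signals of both FST probes had a Pearson correlation of 0.992 over the 17 arrays, and of 0.962 after removal of the stage means.

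FST probe 1 ran from 9.89 to 10.86 at NC1 stage with a median of 10.05, and from 9.80 to 10.30 at C1 stage with a median of 10.18. The C2 arrays gave 8.39, 8.34, 9.21, 9.23 and 8.01 for FST probe 1, all below every compact array. Replicates 3 and 4 were again the highest of the C2 arrays. FST probe 2 had C2 values of 8.30, 8.01, 8.97, 8.88 and 7.90, beside 9.67 to 10.18 at C1 stage and 9.65 to 10.90 at NC1 stage, again without overlap. FST probe 1 fell by 1.49 (SE 0.23) from C1 to C2, which is 2.82-fold (limma adjusted p = 5.7e-05), and fell by 1.51 (SE 0.23) from NC1 to C2 (limma adjusted p = 5.16e-05). FST probe 2 fell by 1.53 (SE 0.24) from C1 to C2 (limma adjusted p = 5.21e-05) and fell by 1.63 (SE 0.24) from NC1 to C2 (limma adjusted p = 2.79e-05). Between C1 and NC1 the FST probes differed by -0.02 (SE 0.22) and -0.10 (SE 0.23). Within scan day 1 FST probe 1 changed by -1.95 from C1 to C2, and within scan day 2 by -0.84, where the call was lost (limma adjusted p = 0.0255). Within scan day 2 FST probe 2 also lost its call against C1 (-0.99, limma adjusted p = 0.0113) and FST probe 1 lost its call against NC1 (-0.83, limma adjusted p = 0.0299), while FST probe 2 stayed called against NC1.

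FSTL3 encodes a second secreted activin-binding protein. Its mean at C2 stage was above those of both compact stages, whereas the C2 means of FST were below. FSTL3 ran from 6.57 to 8.51 at NC1 stage with a median of 8.13, and from 6.66 to 7.87 at C1 stage with a median of 7.31. FSTL3 values at C2 stage were 10.30, 7.15, 8.38, 8.62 and 10.20. Replicates 1 and 5 were the highest and replicate 2 was within the range of both compact stages, so that 4 of 5 C2 arrays were above all C1 arrays and 3 of 5 above all NC1 arrays. The FSTL3 difference was 1.61 (SE 0.48) between C2 and C1 and 1.04 (SE 0.48) between C2 and NC1, and neither passed the test (limma adjusted p = 0.012 and 0.0932). Single arrays changed these calls. Without C2 replicate 2 the FSTL3 difference was 2.06 between C2 and C1 and 1.49 between C2 and NC1, and both were called (limma adjusted p = 0.00082 and 0.00924). Without NC1 replicate 1 the FSTL3 difference between C2 and C1 was also called (limma adjusted p = 0.00854), as it was within scan day 2 (1.64, limma adjusted p = 0.000338). It was not called within scan day 1 (1.44, limma adjusted p = 0.216). Against NC1 the FSTL3 difference was 1.70 within scan day 1 and 0.24 within scan day 2, neither called (limma adjusted p = 0.134 and 0.537). With C2 replicates 1 and 5, and 3 and 4, averaged, it was 1.32 against C1 and 0.75 against NC1, neither called (limma adjusted p = 0.0646 and 0.303).

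The INHBB and FSTL3 probes are shown by their last 30 bases because they alone of the 11 hold the letters AATAAA, the usual polyadenylation signal, in capitals here.
INHBB: tctttatgtttatttAATAAAgctcccctt
FSTL3: tgccttacctgccaaagaAATAAAcactga
Of the 15256 probes with a deposited sequence, 14.3% hold these letters as printed and 4.35% hold the reverse complement TTTATT, which the INHBB probe also holds. The match describes letters and no site of processing.

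TGFBR3, the betaglycan gene, is read by 2 probes with 1 shared identifier, and they did not behave alike. Their first 30 bases are given to show that they share no run longer than 6 bases.
TGFBR3 probe 1: ctgtggccagtttgagcacccctgttgtac
TGFBR3 probe 2: ttaccaaggctgaccaagaactgggatttg
TGFBR3 probe 1 ran from 4.69 to 5.88 at NC1 stage and from 4.85 to 5.59 at C1 stage. The C2 arrays gave 5.16, 6.70, 6.67, 6.60 and 5.35 for TGFBR3 probe 1, with replicates 2, 3 and 4 above all compact arrays and replicates 1 and 5 within their range. TGFBR3 probe 1 differed by 0.84 (SE 0.29) between C2 and C1 and by 0.77 (SE 0.29) between C2 and NC1, neither past the threshold (limma adjusted p = 0.0275 and 0.042). Without C2 replicate 1 these differences were 1.07 and 1.00 and were called (limma adjusted p = 0.00452 and 0.0072). Without C2 replicate 5 that against C1 was 1.02 and was called (limma adjusted p = 0.00933), and within scan day 2 it was 1.52 and was called (limma adjusted p = 0.00104). Within scan day 1 the difference against C1 was 0.33 and was not called (limma adjusted p = 0.621). TGFBR3 probe 2 had C2 values of -0.77, 2.50, -0.42, -0.31 and -0.25, beside -0.05 to 0.92 at C1 stage and -1.83 to 0.62 at NC1 stage. Its difference between C2 and C1 was -0.23 (SE 0.48, limma adjusted p = 0.723). The Pearson correlation of both TGFBR3 probes over the 17 arrays was 0.249, so no direction is given for the gene.

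**Figure D2:**
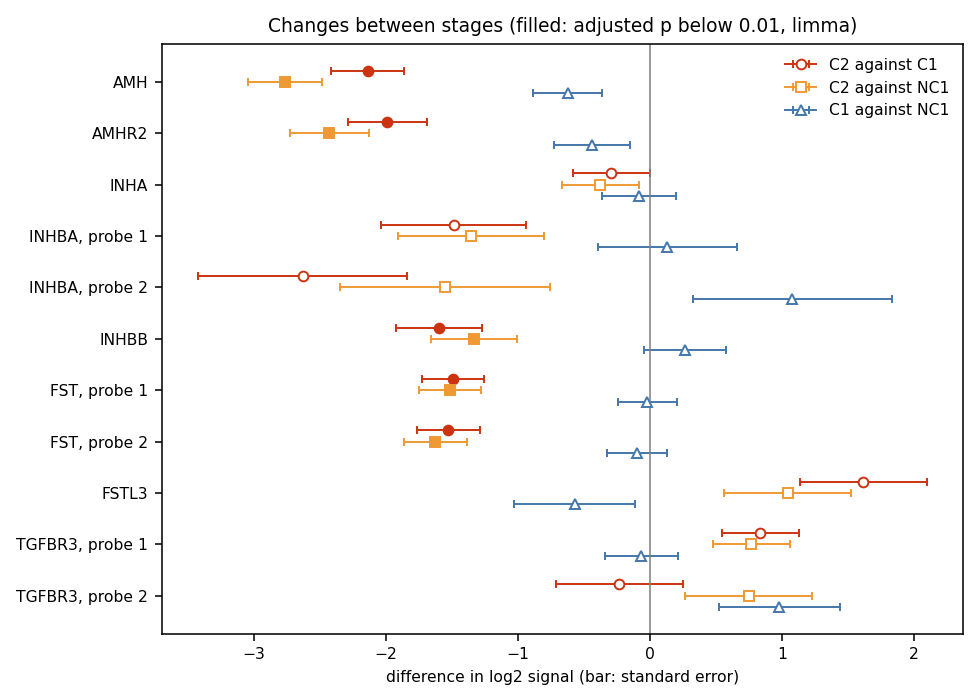
Estimated differences in log2 signal between stages for the 11 probes, with the standard error as a bar. Filled marks are changes with a limma adjusted p below 0.01, which are those of AMH, AMHR2, INHBB and both FST probes against C2, and no C1 against NC1 difference is filled.

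The split of the C2 arrays was seen in several probes of the group, while replicate 2 kept no fixed place in it. C2 replicates 1 and 5 were the lowest of the C2 arrays in INHA and in both INHBA probes, the highest in FSTL3 and the lowest in TGFBR3 probe 1. Replicates 3 and 4 had C2's highest INHA, INHBA, INHBB and FST values. AMH was also lowest in replicates 5 and 1 and highest in replicate 4, with replicate 2 above replicate 3. INHBB, in contrast, was lowest in replicate 2 (5.09), and both FST probes were lower there than in replicate 1. TGFBR3 probe 2 was highest in replicate 2 (2.50). AMHR2 was not above background in replicates 3 and 4 and is given no order there.

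Marker lists of the sampled and of other cell types also differed among the C2 arrays, in part through single genes. The summed scaled signal of the 10 theca and stroma markers on the array was 420.2 and 538 in C2 replicates 1 and 5, and 164 to 273 in the other C2 arrays, beside 183 to 291 at C1 stage and 179 to 298 at NC1 stage. STAR, a cholesterol carrier of steroid-producing cells, made up 202 and 292 of these sums in replicates 1 and 5 and at most 1.83 in the other C2 arrays. Without STAR the theca and stroma sum was 218 and 246 in replicates 1 and 5 and 162 to 273 in the other C2 arrays, within or below the compact ranges, although 8 of the 10 genes had their 2 highest C2 values in replicates 1 and 5. Of the 10 markers, 9 were above background on all C2 arrays, 7 on all C1 arrays and 9 on all NC1 arrays, and LHCGR was above it on no NC1 array.

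The summed signal of the 10 leukocyte markers was 31.5 and 41.1 in replicates 1 and 5 and 12.5 to 26.9 in the other C2 arrays, beside 10.4 to 16.5 at C1 stage and 13.2 to 23.1 at NC1 stage, with CD3E and ITGAM above background on no array of either compact stage. The sum of the 6 endothelial markers was 7.37, 2.86, 9.97, 11.5 and 6.51 in C2 replicates 1 to 5, beside 1.51 to 3.02 in the compact stages, and CDH5 was above background on no array of any stage. The endothelial sum was thus highest in replicates 3 and 4. Only KDR had a higher median log2 signal at C2 stage (0.98) than at NC1 (-1.91) and C1 stage (-1.90). The C2 medians of PECAM1, VWF, TEK and CLDN5 were below those of both compact stages. The sum of the 3 red blood cell markers was 51.1 in C2 replicate 1 and 2.18 to 10.7 in the other C2 arrays, beside 72.4 to 258 at C1 stage and 27.6 to 129 at NC1 stage. HBA had a median log2 signal of 1.95 at C2 stage, beside 6.17 at NC1 and 6.50 at C1 stage. The median of HBB was slightly higher at C2 stage (-3.11) than at NC1 (-3.52) and C1 stage (-3.37). The summed signal of the 7 granulosa and cumulus markers was 1464 and 1665 in replicates 3 and 4 and 499 to 589 in the other C2 arrays, beside 1378 to 2446 at C1 stage. GJA1, which encodes the gap junction protein that links cumulus cells, made up 1194 and 1444 of the sums in replicates 3 and 4. Without GJA1 the sum was 160 to 271 over the C2 arrays and did not separate replicates 3 and 4. That sum was 460 to 875 at NC1 stage and 732 to 1115 at C1 stage, so that every C2 array was below all compact arrays. The summed signal of the 11 oocyte markers was 58.0 to 139 at NC1 stage, 5.44 to 53.6 at C1 stage and 3.39 to 7.93 at C2 stage, with 6 of them above background on no C2 array. STAR, GJA1 and the single endothelial and red blood cell markers were named after their values were seen. The part of these markers in the results for the member genes was not tested.

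**Figure D3:**
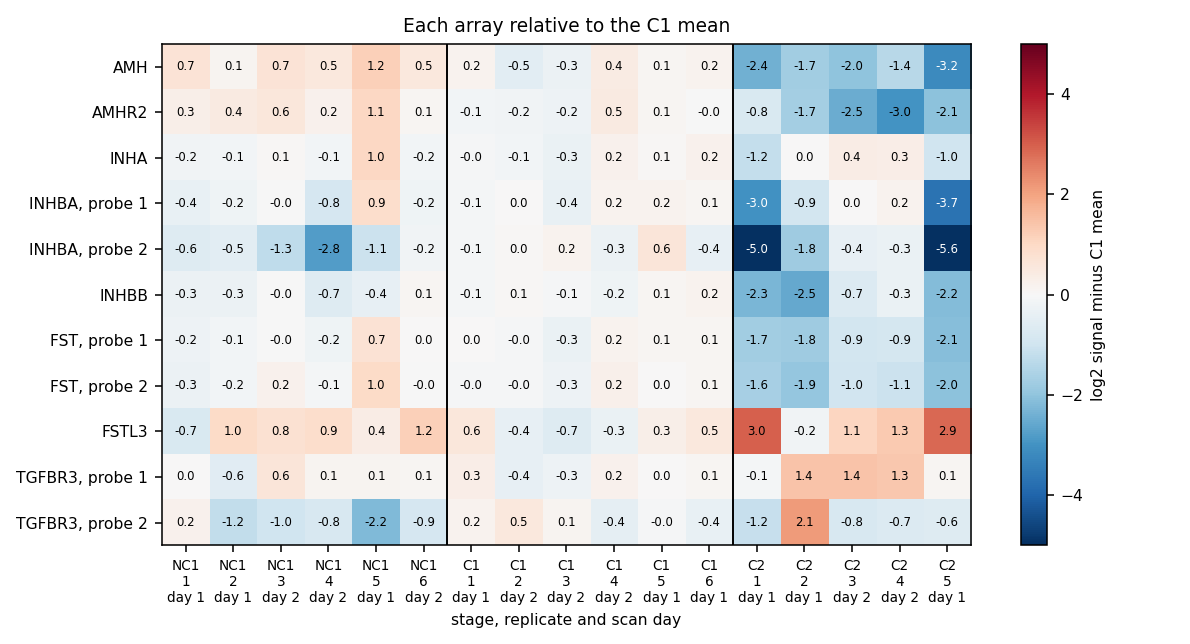
Log2 signal of each of the 11 probes on each of the 17 arrays, minus the mean of that probe over the C1 arrays, printed in each cell, with stage, replicate and scan day under each column and colours that end at a difference of 5. C2 replicates 1 and 5 show the lowest INHBA and highest FSTL3 cells, and replicates 3 and 4 show INHBA cells near the C1 mean.

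The balance of ligands and binding proteins was read as the difference between 2 probes within an array, by the brightest valid probe of each gene. A single such difference has no meaning because probes differ in brightness, but its change between stages compares how both transcripts moved. There were 8 pairs and 3 comparisons, giving 24 tests, and AMH minus AMHR2 was not tested since AMHR2 has no valid probe. Of the 8 pairs, none passed an adjusted p of 0.01 by the 2-sided exact permutation test in any comparison, while 5 had an unadjusted p below 0.05 between C2 and C1, 4 between C2 and NC1 and 2 between C1 and NC1. The smallest p that 5 against 6 arrays allow is 0.00433, which became 0.0148 after adjustment over the 24 tests. With the p taken from absolute differences instead, a definition added after seeing the data, 5 pairs were called between C2 and C1 and 1 between C2 and NC1.

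Relative to the alpha subunit, both beta subunits were lower at C2 than at C1 stage on every array, without passing the adjusted threshold. INHBA minus INHA was -1.83, -0.93, -0.30, -0.10 and -2.64 in the C2 arrays and 0.03 ± 0.10 (SD, n = 6) at C1 stage, a difference of -1.19 (exact permutation p = 0.00433, adjusted p = 0.0148). INHBB minus INHA was -4.07, -5.54, -3.98, -3.62 and -4.11 in the C2 arrays and -2.95 ± 0.24 (SD, n = 6) at C1 stage, a difference of -1.31 with the same exact permutation p. All 5 C2 arrays were below all C1 arrays in both pairs, although replicates 3 and 4 were only just below for INHBA minus INHA. In comparison to NC1 the differences were -0.98 and -0.96, with overlap (exact permutation adjusted p = 0.0945 and 0.0831).

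Relative to follistatin, the INHBA values of the C2 arrays lay on both sides of those at C1 stage. INHBA minus FST was -0.80 and -1.06 in C2 replicates 1 and 5, and 1.35, 1.44 and 1.58 in replicates 2, 3 and 4, beside 0.38 to 0.57 at C1 stage. Of the 5 C2 arrays, 2 were thus below and 3 above every C1 array, and the mean difference was 0.01 (exact permutation p = 0.974). INHBB minus FST differed by -0.11 between C2 and C1 (exact permutation p = 0.658), and its C2 values ran from -3.25 to -1.94. INHBA minus FSTL3 was -2.71, 2.55, 2.26, 2.19 and -3.26 in the C2 arrays and 3.31 ± 0.47 (SD, n = 6) at C1 stage, a difference of -3.10 without overlap (exact permutation p = 0.00433, adjusted p = 0.0148). In comparison to NC1 that difference was -2.40 with overlap (exact permutation adjusted p = 0.256).

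INHA minus TGFBR3 had the smallest SD of the 8 pairs at C2 stage. It was 4.26, 3.93, 4.28, 4.31 and 4.24 in the C2 arrays, beside 5.33 ± 0.23 (SD, n = 6) at C1 stage and 5.35 ± 0.55 (SD, n = 6) at NC1 stage. The differences were -1.13 and -1.14, with every C2 array below all compact arrays (exact permutation adjusted p = 0.0148 for both). This pair rests on TGFBR3 probe 1, and the second TGFBR3 probe did not follow the first. AMH minus INHA differed by -1.85 between C2 and C1 and by -2.39 between C2 and NC1, both without overlap (exact permutation adjusted p = 0.0148). Between C1 and NC1 it differed by -0.54, with 4 of 6 C1 arrays below all NC1 arrays (exact permutation p = 0.00649, adjusted p = 0.0195). INHBA minus INHBB differed by 0.12 between C2 and C1 (exact permutation p = 0.831), with C2 values from 1.47 to 4.61.

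**Figure D4:**
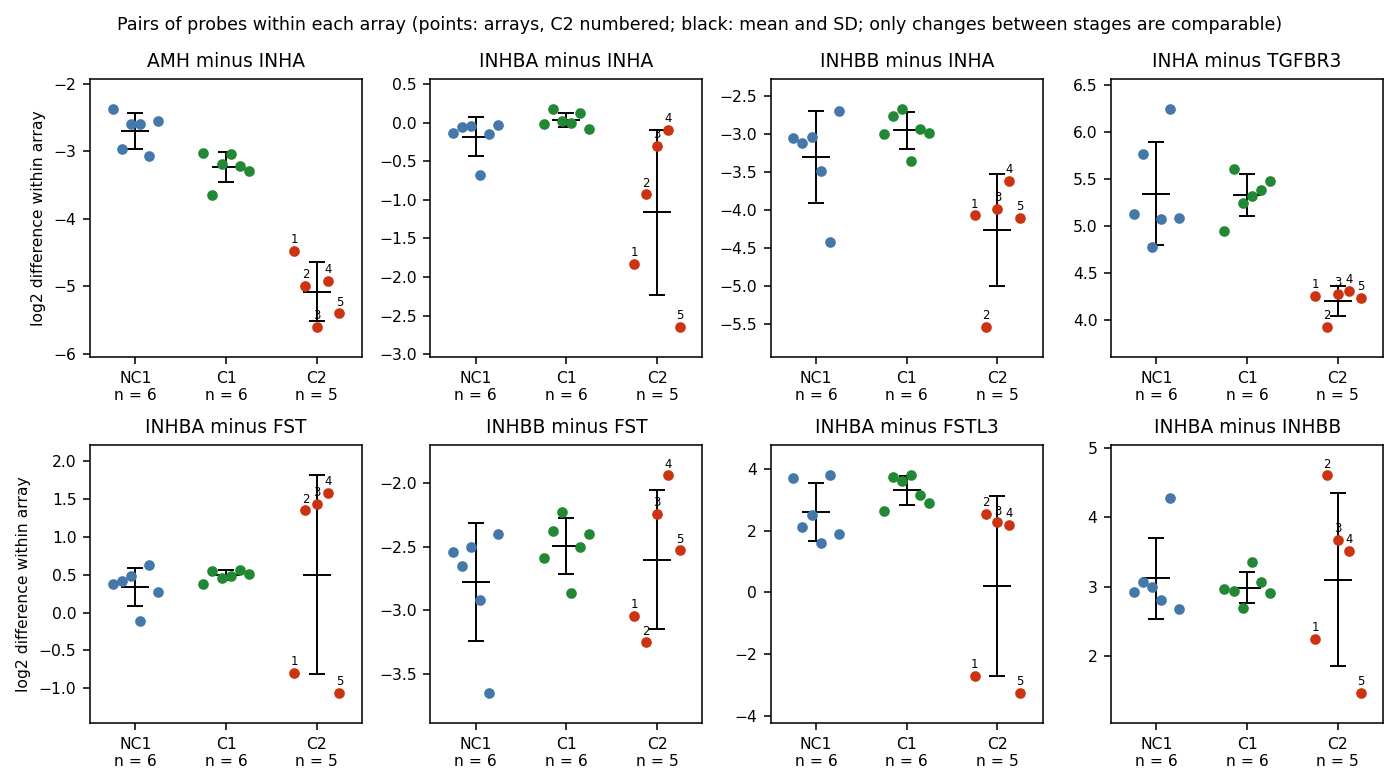
Differences in log2 signal between the brightest valid probes of 8 gene pairs within each array, by stage, with mean and SD in black and replicate numbers on C2 arrays. All C2 arrays lie below all C1 arrays for AMH, INHBA and INHBB minus INHA, whereas INHBA minus FST splits the C2 arrays to both sides of the C1 values.

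Other receptors, signal transducers, ligands, binding proteins and processing enzymes of the TGF-beta family were read by the brightest valid probe. Gonadotropin receptors and transcription factors were read in the same way. All are called pathway genes below, although the lists are wider than the genes through which AMH, inhibin or activin act. Of 62 genes in 6 lists, 41 had a valid probe, and 19 of these were called between C2 and C1, 8 higher and 11 lower, where 28.1% of all valid probes were called, 15.3% higher and 12.8% lower. Between C2 and NC1, 18 of 41 were called, 8 higher and 10 lower, where 28.1% of all valid probes were called, 15.5% higher and 12.6% lower. Between C1 and NC1 limma called none, where 0.0577% were called. The medians over the 41 genes were -0.23 from C1 to C2 and -0.04 from NC1 to C2.

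Of 8 receptors with a valid probe, 3 rose from C1 to C2 and none fell (37.5%, beside 15.3% of all valid probes called higher). TGFBR2, the type II receptor of TGF-beta, rose by 3.69 (SE 0.33, limma adjusted p = 1.02e-07) from -1.47 ± 0.74 (SD, n = 6) to 2.21 ± 0.29 (SD, n = 5). BMPR1B, a type I receptor of BMPs, rose by 1.56 (SE 0.36, limma adjusted p = 0.00201). BMPR2, the type II receptor used by BMP15 and GDF9, rose by 1.50 (SE 0.22, limma adjusted p = 2.33e-05), and was named after its value was seen. The activin receptors ACVR1B and ACVR2A differed by 0.36 (SE 0.30) and 0.39 (SE 0.25), neither past the threshold (limma adjusted p = 0.365 and 0.225). Of 5 SMADs, the transducers of these receptors, only SMAD2 was called between C2 and C1, where 28.1% of all valid probes were called. SMAD1, named after its value was seen, rose by 0.96 from NC1 to C2 (limma adjusted p = 0.00822). SMAD2, which carries the activin signal together with SMAD3, fell by 1.67 (SE 0.22, limma adjusted p = 7.02e-06), while SMAD3 differed by -0.87 (SE 0.34, limma adjusted p = 0.0483).

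Of 8 other ligands, 2 rose from C1 to C2 and none fell (25.0% called, beside 28.1% of all valid probes). TGFB2 rose by 3.99 (SE 0.65, limma adjusted p = 8.37e-05) and TGFB3 by 2.04 (SE 0.42, limma adjusted p = 0.000747), both TGF-beta isoforms. GDF9, an oocyte factor of the same family, was lower at C2 than at NC1 stage by -3.30 (limma adjusted p = 6.64e-05) and did not differ past the threshold between C2 and C1 (limma adjusted p = 0.482). Of 7 other binding proteins, 4 fell and 1 rose, beside 12.8% and 15.3% of all valid probes called lower and higher. NOG, which encodes the BMP antagonist noggin, fell by 4.22 (SE 0.58, limma adjusted p = 1.3e-05), from 2.87 ± 0.80 (SD, n = 6) to -1.35 ± 1.58 (SD, n = 5). CHRDL1, another BMP antagonist, fell by 2.02 (SE 0.43, limma adjusted p = 0.00106). NBL1 and CHRD, named after their values were seen, changed by -1.86 and -0.77. FSTL1, a secreted protein of the follistatin family, rose by 1.28 (SE 0.23, limma adjusted p = 0.000256), whereas FST fell.

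Of 4 proprotein convertases, enzymes that cleave TGF-beta family precursors, 3 were called between C2 and C1, beside 28.1% of all valid probes. PCSK5 rose by 1.74 (SE 0.47, limma adjusted p = 0.006) and PCSK7 rose by 1.40 (SE 0.18, limma adjusted p = 4.83e-06). PCSK6 fell by 2.09 (SE 0.37, limma adjusted p = 0.000177) and FURIN differed by 0.74 (SE 0.27, limma adjusted p = 0.0373). Of 9 gonadotropin receptor and transcription factor genes, 5 fell from C1 to C2 and none rose. Of all valid probes 12.8% were called lower and 15.3% higher. FSHR, the FSH receptor, fell by 3.55 (SE 0.23, limma adjusted p = 2.31e-09) and FOXL2, a granulosa transcription factor, fell by 2.99 (SE 0.20, limma adjusted p = 3.56e-09). The other 3, named after their values were seen, were ESR2, NR5A1 and GATA4, which changed by -2.93, -1.67 and -0.78.

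**Figure D5:**
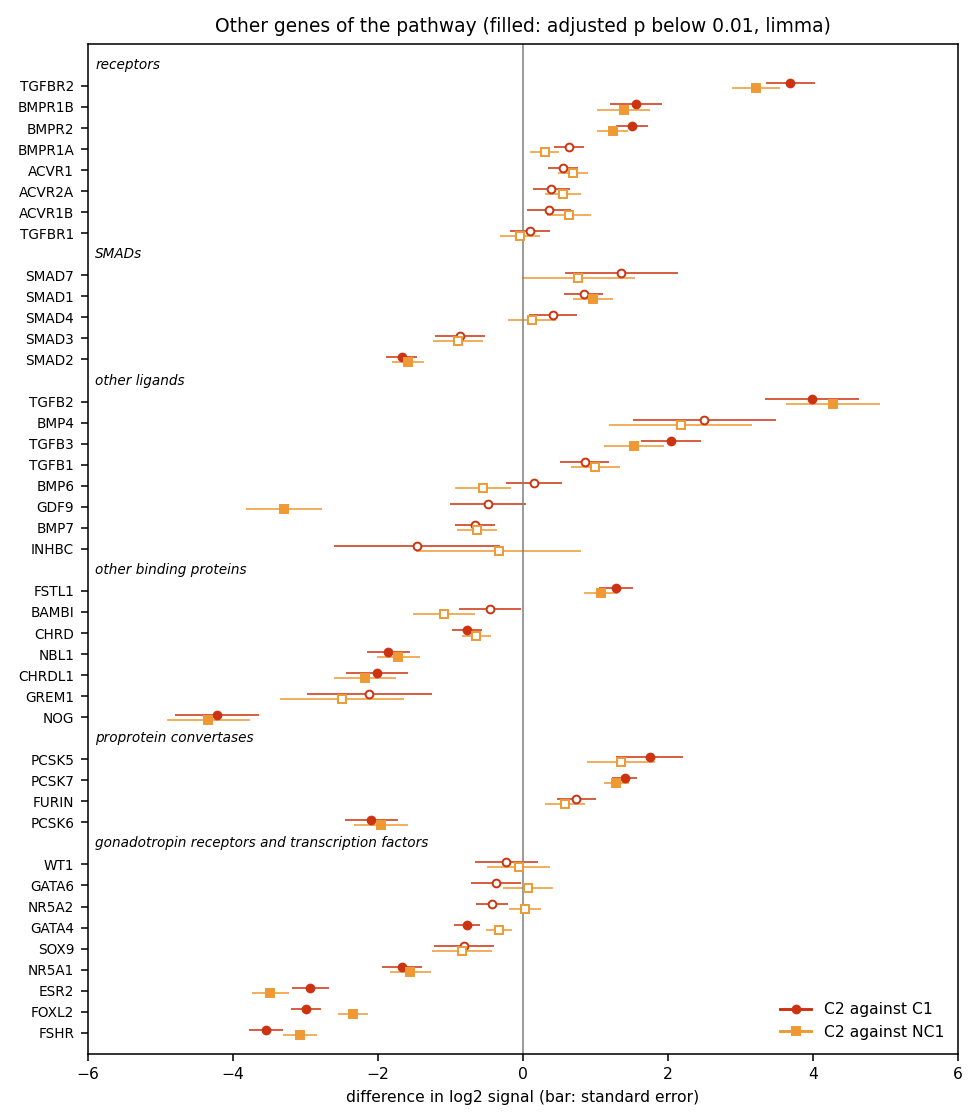
Differences in log2 signal at C2 stage in comparison to C1 and to NC1 for the 41 other genes of the pathway, grouped by role, with standard errors as bars and changes with a limma adjusted p below 0.01 filled. Filled receptors and ligands lie to the right of 0 except GDF9 against NC1, and filled regulators all lie to the left.

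Genes with the pattern most like that of a member were found by Pearson correlation of signal over the 17 arrays, which share stage, and are given as a description. For AMH these were ESR2 (0.965), an estrogen receptor, CES2 (0.962), a carboxylesterase, and RECQL4 (0.961), a DNA helicase. For FST they were UPK1B (0.975), CES2 (0.964) and ROR2 (0.961), a receptor of WNT5A. CES2 was thus near both AMH and FST. For INHBA they were SRGN (0.981), which encodes the proteoglycan serglycin, STRA6 (0.976), a retinol transporter, and SPC24 (0.965), a kinetochore protein. For INHA they were HSPA5 (0.910) and P4HB (0.899), both chaperones of the endoplasmic reticulum, and VCAN (0.898), the matrix proteoglycan versican. After removal of the stage means, HSPA5 (0.947) and P4HB (0.934) were also the nearest to FST, followed by GSTA1 (0.921), while PDE6G (0.835), PRO1580 (0.831) and ARHGAP10 (0.826) were the nearest to AMH.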

How the data were processed

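Total RNA of 17 cumulus samples was labelled with Cy3 and hybridised to 1-colour Agilent bovine arrays, 1 animal per array. The authors read the scans with Agilent Feature Extraction 10.5.1.1, per the file headers, which gave a spot intensity with local background subtracted and detrended. They also deposited a table of log2 signals scaled by the median of each array, limited to probes present in any 2 stages. A genome build is not given in the sources used here, and no coordinates are given.

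From the deposited intensities, spots of a probe were averaged on the log2 scale, control probes were left out, and each array's median was subtracted. The result differed from the authors' log2 table by a constant offset per array. A probe was valid when above background, uniform and not saturated on 80% or more of the arrays in every stage, as the study's methods state. limma 3.58.1 in R 4.3.3 (lmFit, eBayes) was fitted on all 3 stages with no covariate, with Benjamini-Hochberg adjustment over all probes in each comparison and a threshold of 0.01. The fit was tested on simulated data. Pair differences were tested by 2-sided exact permutation, as in SciPy 1.17.1, adjusted over the 24 pair comparisons. Replicates are animals. Array symbols were updated through RefSeq's gene table.

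Members and lists were chosen with earlier results of these data known. Named genes were all members, up to 2 of the largest rises and falls per pathway list between C2 and C1, any list gene called between C1 and NC1, and the 3 genes most correlated with AMH, INHA, INHBA and FST. Alternatives were other scaling, background correction, filters, blocks for replicate number, slide and scan day, array weights, and each array left out. The methods' one-factor test was also run, with plain t-tests between stages. Within-day fits, the interaction with scan day, averaging of C2 replicates 1 and 5 and of 3 and 4, and another definition of the permutation p were chosen after seeing the data.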

Additional observations from a re-analysis of the deposited data

Results flagged for a closer look

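Among 57 groups of values, 11 probes and 8 pairs at 3 stages, 7 had an array whose gap to the next one was large for the group's range, where chance alone gives about 1 in 20. NC1 replicate 5 was the highest of its stage for INHA (11.63) and for FST probe 1 (10.86), and for INHBA minus INHBB (4.27). NC1 replicate 4 was the lowest for INHBA minus INHA (-0.68). C2 replicate 2 was the highest of its stage for TGFBR3 probe 2 (2.50), and the lowest for INHBB minus INHA (-5.54) and for INHA minus TGFBR3 (3.93).

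The change of INHBB from C1 to C2 differed between scan days, by -1.96 on scan day 1 relative to scan day 2 (limma interaction, adjusted p = 0.00766). Scan day 2 held 2 C2 arrays, and it cannot be told apart from them. Over all 13865 valid probes, 90 passed the same interaction test for C2 against C1, 61 for C2 against NC1 and 0 for C1 against NC1. In these comparisons 3101, 2706 and 143 valid probes had an unadjusted limma interaction p below 0.05.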

How the results depend on the processing

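Array weights gave the C2 arrays weights of 0.283 to 0.928. With them 7 member probes were called among the 3 stages and 7 between C2 and C1, in place of 4 each. Both INHBA probes and FSTL3 were added. Of all valid probes 31.4% and 29.5% were then called. Between C1 and NC1, 1 pathway gene, GDF9, was called in place of 0, while the share of all valid probes called went from 0.0577% to 1.72%. Within scan day 2, 2 member probes were called between C2 and NC1 in place of 4, where 25.1% of all valid probes were called. Within scan day 1, 10 pathway genes were called between C2 and C1, in place of 19, and 10 between C2 and NC1, in place of 18, while the share of all valid probes called went from 28.1% to 9.82% and 10.1%. With the permutation p taken from absolute differences, 5 pair differences were called between C2 and C1 and 1 between C2 and NC1, in place of 0. Leaving out 1 array at a time gave 4 to 5 member probes called among the stages, 4 to 6 between C2 and C1 and 3 to 5 between C2 and NC1. Of all valid probes 24.7% to 31%, 24.2% to 30.8% and 24.3% to 30% were then called. It gave 0 to 1 pathway genes between C1 and NC1, the 1 being GDF9 without C1 replicate 2, where 0.0938% of all valid probes were called. Scaling by the 75th percentile moved the median of all probes between C2 and C1 from 0.02 to -0.11 and no member call. Plain t-tests between 2 stages did not call INHBB (t-test adjusted p = 0.0171 against C1 and 0.0411 against NC1). They were run beside the methods' one-factor test over the 3 stages and are not that test. Against NC1, limma did not call INHBB with normexp (adjusted p = 0.0253) or with only the arrays of the 2 stages (adjusted p = 0.0172).

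With the replicate number as a block, 4 member probes were called between C2 and C1 and 4 between C2 and NC1, and 18 and 16 pathway genes. Of all valid probes 23.1% and 22.3% were then called. The numbers did not pair the arrays: of 16 same-numbered pairs, 4 had deviations correlated above 0.1, and the median correlation was -0.07. The number of arrays and the spread of the 5 C2 arrays limit what could be called, and for AMHR2 at C2 stage so does a signal near background.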
